A study of Mus musculus with 6 samples.

Results

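The full departure of mouse embryonic stem cells from the naive state over 4 days of culture as epiblast-like cells (EpiLCs) was read by setting the array of EpiLCs (d4) against the array of ESCs, gene by gene. Every probe set that is not a manufacturer's control and carries 1 gene symbol was taken, which left 28898 of 45037 probe sets, standing for 17097 genes, on 2 of the 6 arrays of the series. The array of EpiLCs (d2) was used to tell when a difference had appeared. All differences are log2 values in EpiLCs minus ESCs, so that a negative value marks a gene that was higher in ESCs.

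Both cultures come from E14tg2a, a mouse ESC line, carrying a piggyBac cassette from which doxycycline switches on FLAG-tagged *Prdm14*, and clones of such cells were picked as colonies. The EpiLC cultures at day 2 and day 4 are labelled Scramble, which is the control shRNA, and the ESC array carries no such label. ESCs are described as grown without feeders in serum with LIF, the study also describes a naive culture in N2B27 medium with LIF and inhibitors of GSK3 and MEK before induction, and which of these the ESC array came from is not given. EpiLCs were induced on fibronectin with activin A, bFGF and a little serum replacement for 2 days and were then replated, here without doxycycline, in the medium GK15 until day 4. State, shRNA vector and medium therefore cannot be told apart between ESCs and EpiLCs, nor can time and medium between day 2 and day 4. The third array that is described here is EpiLCs (d2), and the rest of the series holds EpiLCs in which PRDM14 was to be induced and arrays labelled *Tet1*/*Tet2* KD. Those arrays entered the choice of each gene's brightest probe set and the alternative scalings. The KD-labelled array of day 2 was also used as an alternative day 2.

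Naive ESCs stand for the inner cell mass of the blastocyst before implantation, and their transcription factor network is held by LIF-STAT3 signaling and by keeping FGF-ERK signaling low. When they are given activin A and bFGF they take up the features of the epiblast just after implantation, a formative state in which OCT3/4 and SOX2 stay on, the naive factors are switched off and the de novo DNA methyltransferases are raised. This state is brief and is the one from which primordial germ cells are induced.

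Each condition has 1 array, so no difference has a replicate check or a p-value, and a gene was called when its brightest probe set differed by 1.5-fold or more, 0.58 on the log2 scale. By this threshold 703 genes (4.11% of 17097) were higher in EpiLCs (d4) and 594 (3.47%) were lower, and by probe sets the counts were 1076 (3.72%) and 831 (2.88%). At day 2 the same rule gave 397 genes higher than in ESCs (2.32%) and 461 lower (2.7%), so the genes above ESCs became the more numerous group only after day 2. The departures were mostly moderate. At 2-fold the counts at day 4 were 306 and 230, at 4-fold 63 and 43, at 8-fold 14 and 12, and the median difference over all genes was −0.02. The genes closest to the threshold were *Cfap300* at 0.585 and *Rtn3* at 0.584 on the higher side, and *Acaa1a* at −0.585 and *Ociad2* at −0.584 on the lower side. The medians of the ESC, day 2 and day 4 arrays lay between 5.28 and 5.29.

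**Figure D1:**
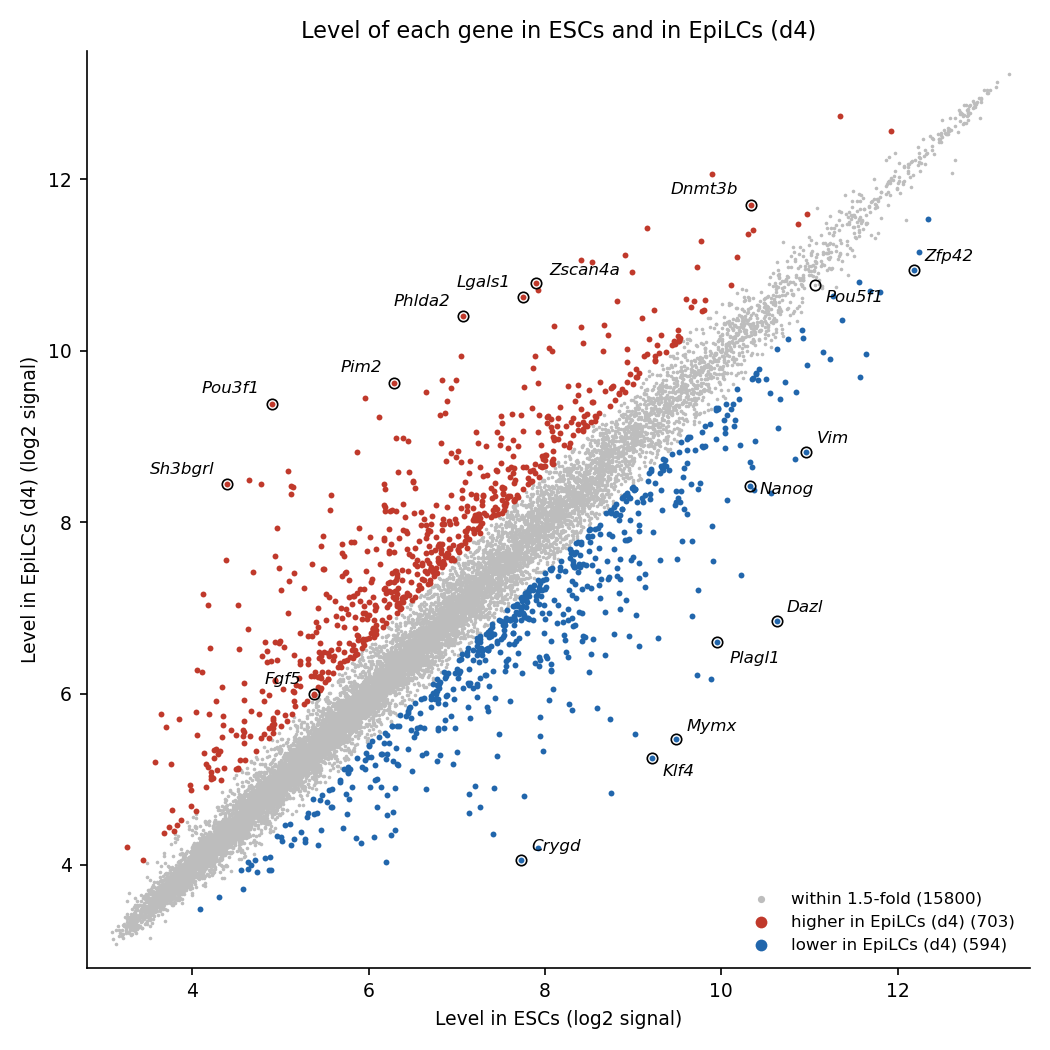
Level of each of 17097 genes (brightest probe set, log2 signal) in ESCs on the x axis and EpiLCs (d4) on the y axis, with the 703 genes that were higher and the 594 that were lower in EpiLCs (d4) by 1.5-fold in colour. *Pou3f1* lies farthest above the diagonal and *Mymx* farthest below it, while *Pou5f1* lies near it.

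The day 2 array separated the called genes into classes. A gene was early when it was already past 1.5-fold at day 2 and day 4 lay within 1.5-fold of day 2, progressive when day 4 lay another 1.5-fold beyond day 2, and late when day 2 still lay within 1.5-fold of ESCs. Among the higher genes 210 were early (1.23% of all genes), 74 progressive (0.433%) and 411 late (2.4%). Among the lower genes 279 were early (1.63%), 39 progressive (0.228%) and 266 late (1.56%). Late genes thus made up 58.5% of the higher and 44.8% of the lower genes, and at day 2 the median gene had reached 51.0% of its day 4 difference on the higher side and 73.2% on the lower side. Another 104 genes (0.608%) were higher and 134 (0.784%) lower at day 2 and were back within 1.5-fold of ESCs at day 4, the transient class. The class counts depend on the day 2 array. With the KD-labelled array as day 2, on a common median, the transient class held 524 higher and 404 lower genes, and on the lower side late genes (333) outnumbered early ones (185). A further 8 higher and 9 lower genes had partly returned by day 4, and *Epas1*, which encodes the hypoxia factor HIF-2α, was the only one to cross over, with 7.07 in ESCs, 7.67 at day 2 and 6.06 at day 4. All classes use the same ESC array, so an error in that array enters every step.

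**Figure D2:**
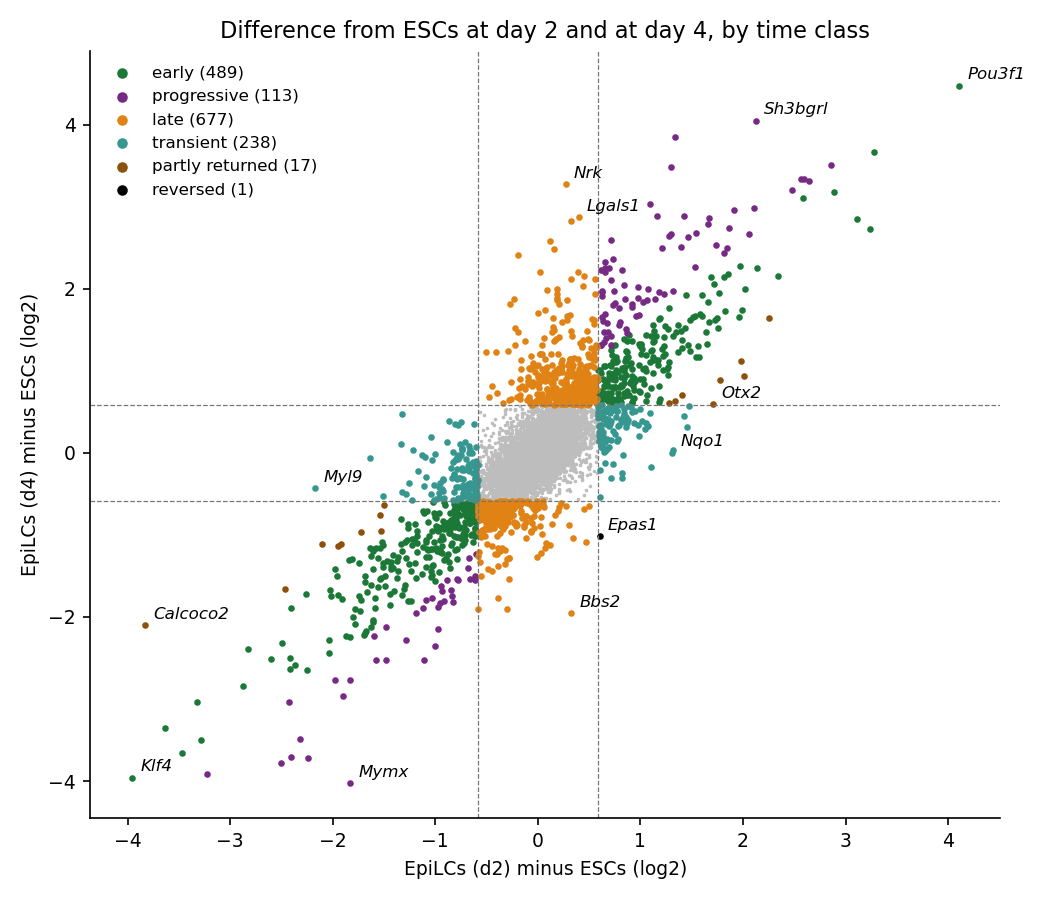
Difference of each gene from ESCs at day 2 (x axis) and at day 4 (y axis), both as log2 differences, coloured by time class with the number of genes in brackets; dashed lines mark 1.5-fold. *Klf4* and *Pou3f1* had all or most of their difference at day 2, *Nrk* and *Lgals1* were past the threshold at day 4 only, and *Myl9* at day 2 only.

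Of 35 measured genes of naive pluripotency, 21 were lower and 2 higher in EpiLCs (d4), with a median difference of −1.02. Of the called members 16 were early and 2 late, and the median at day 2 was already −0.81. *Klf4*, a Krüppel-like factor that LIF-STAT3 switches on directly, read 9.21 in ESCs and 5.25 in both EpiLC arrays, and its other probe set gave a difference of −0.99. *Tfcp2l1*, another STAT3 target of the naive network, read 9.07 in ESCs, 6.46 at day 2 and 6.56 at day 4. *Nanog* read 10.32, 7.91 and 8.43, and *Tcl1*, a coactivator of AKT, read 8.30, 5.88 and 5.80. All of these had reached their low level by day 2. *Esrrb*, an orphan nuclear receptor, read 8.52, 6.92 and 6.46, a difference of −2.07 at day 4. *Nr0b1* (−1.79), *Nr5a2* (−1.75), *Tbx3* (−1.74) and *Zfp42* (−1.24) were early in the same way. *Tbx3* has other probe sets at −3.00 and −0.05, so the size of its difference depends on the probe set. *Prdm14* itself read 6.96 in ESCs, 5.04 at day 2 and 5.18 at day 4, a difference of −1.78.

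Not every gene of the naive list followed this course. *Lifr*, the receptor of LIF, was progressive with 8.95, 7.66 and 6.67, and *Manba*, a lysosomal mannosidase, likewise with 9.73, 8.63 and 7.20. *Calcoco2*, an autophagy receptor, read 10.84 in ESCs, 7.01 at day 2 and 8.74 at day 4, so that it was lowest at day 2, and *Fbxo15*, a classical ESC reporter gene, partly returned too with 10.97, 9.03 and 9.83. *Klf2* was past the threshold at day 2 only, with 8.92, 8.33 and 8.52. The members that were higher in EpiLCs (d4) were *Gbx2*, a homeobox gene, with 4.84, 5.47 and 6.49, and *Dppa3*, which encodes STELLA, with 6.49, 7.26 and 7.61. Targets of LIF-STAT3 outside the transcription factor network were split: *Icam1* (−2.44), *Bcl3* (−1.39) and *Socs3* (−0.66) were lower and *Socs2* (1.13) was higher. Of all 20 measured targets, *Klf4*, *Tfcp2l1*, *Lifr* and *Gbx2* among them, 6 were lower and 3 higher.

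The sequence CCACCC, the core that Krüppel-like factors bind, was searched on both strands in the 300 bases from 250 before to 50 after each RefSeq gene start (GRCm38.p6), a window that 13514 of the 17097 genes have. It stood in 40.2% of all promoters, 45.2% of those of the lower genes, 43.4% of those of the higher genes and 63.6% of the 22 naive genes with a window. It also stood in 56% of the 25 formative and primed epiblast genes with a window, a list whose called members were mostly higher. Other sequences searched on both strands were AAGGTCA and the longer TCAAGGTCA (both cores of ESRRB sites, the first inside the second), ATGCAAAT (the OCT octamer), TTTCGCGC and TTTGGCGC (E2F), TGACGTCA (the cAMP response element), TATAAA and the E-box CACGTG. The octamer stood in 1.72% of all promoters, 3.45% of those of the higher genes and 1.03% of those of the lower genes. Promoters of 3 early lower genes of the naive network are given, with the match or its reverse complement in capitals. Some genes have several starts and so several windows, and another window of *Nr5a2* holds no CCACCC.
*Nanog* (chr6:122707315-122707614, plus strand): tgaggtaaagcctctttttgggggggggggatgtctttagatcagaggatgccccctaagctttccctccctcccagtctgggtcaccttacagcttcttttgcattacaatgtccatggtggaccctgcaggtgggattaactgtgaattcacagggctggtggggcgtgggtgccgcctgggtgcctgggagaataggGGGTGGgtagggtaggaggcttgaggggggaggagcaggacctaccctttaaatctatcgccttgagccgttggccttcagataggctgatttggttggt
*Tcl1* (chr12:105222688-105222987, minus strand): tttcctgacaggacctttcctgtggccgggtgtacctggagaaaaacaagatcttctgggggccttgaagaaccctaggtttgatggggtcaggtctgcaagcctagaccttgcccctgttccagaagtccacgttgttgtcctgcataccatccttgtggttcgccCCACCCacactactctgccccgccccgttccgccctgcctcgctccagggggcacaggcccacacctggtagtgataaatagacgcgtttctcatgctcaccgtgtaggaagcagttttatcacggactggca
*Nr5a2* (chr1:136953581-136953880, minus strand): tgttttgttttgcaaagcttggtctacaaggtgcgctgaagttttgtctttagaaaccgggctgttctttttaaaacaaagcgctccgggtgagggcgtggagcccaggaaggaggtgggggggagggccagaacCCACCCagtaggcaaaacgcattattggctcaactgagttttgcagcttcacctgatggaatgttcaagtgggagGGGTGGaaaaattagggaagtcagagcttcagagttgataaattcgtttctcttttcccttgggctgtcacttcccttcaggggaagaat
*Klf4* and *Tfcp2l1*, with early differences larger than these, hold no match in their windows. The matches are positions of letters and do not say that a factor binds there.

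OCT3/4 and SOX2 did not follow the naive genes. *Pou5f1*, which encodes OCT3/4, read 11.06, 10.88 and 10.77 in ESCs, at day 2 and at day 4, and *Sox2* read 11.14, 10.91 and 10.76. Of 18 measured core pluripotency genes 1 was lower and 4 were higher, with a median of −0.02. The higher ones were *Mycn* (7.89, 9.61 and 9.94), *Myc* (7.21, 8.10 and 8.06), *Lin28a*, an RNA-binding protein that blocks let-7 maturation (7.73, 8.59 and 9.25), and *Epcam*, an epithelial adhesion molecule (8.44, 9.95 and 10.09). *Dppa2*, a DNA-binding protein of ESCs, was the lower one with 11.37, 10.76 and 10.35. Another probe set of *Mycn* gave −0.04.

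The genes of the formative and primed epiblast were mostly higher. Of 41 measured, 24 were higher and 1, *Nefl*, a neurofilament gene, was lower, with a median of 0.63. *Pou3f1*, a POU factor also called OCT6, had the largest difference of all genes on the higher side, with 4.91 in ESCs, 9.01 at day 2 and 9.38 at day 4, or 22.3-fold. *Pkdcc*, a secreted kinase, read 4.77, 8.04 and 8.44, and *Cpe*, a carboxypeptidase, 4.68, 7.92 and 7.41. *Pim2*, a kinase, went up in both steps from 6.29 through 8.86 to 9.62, and *Sox11* from 4.95 through 7.06 to 7.93. *Lefty1*, an inhibitor and target of nodal signaling, read 9.15, 11.13 and 11.43. These genes had most of their difference at day 2. The marker *Fgf5* was dim on this array with 5.38, 6.30 and 5.99, and its other probe set gave −0.20. *Otx2* was highest at day 2, with 6.53, 8.23 and 7.13, so that both of these markers stood only just past the threshold at day 4. Other probe sets of *Pkdcc* (0.38) and *Sox11* (0.09) did not pass the threshold.

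Among 20 genes of DNA methylation and its readers 5 were higher and 1 was lower, all of them early. *Dnmt3b*, a de novo methyltransferase, read 10.34, 11.47 and 11.70, and *Dnmt3a* read 8.18, 9.75 and 9.35. *Dnmt3l*, their cofactor without activity of its own, read 10.13, 10.46 and 10.11 and was not called. *Tet2*, a dioxygenase that oxidizes 5-methylcytosine, read 8.93, 8.54 and 8.35, a difference of −0.58 that lay just inside the threshold, and *Tdg*, the glycosylase that excises its products, read 9.45, 10.19 and 10.07. The stress-response genes of the *Gadd45* family split. *Gadd45g* went from 4.39 through 7.27 to 7.56 and *Gadd45a* from 6.41 through 8.37 to 8.06, while *Gadd45b* was lower with 8.96, 7.33 and 7.80.

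**Figure D3:**
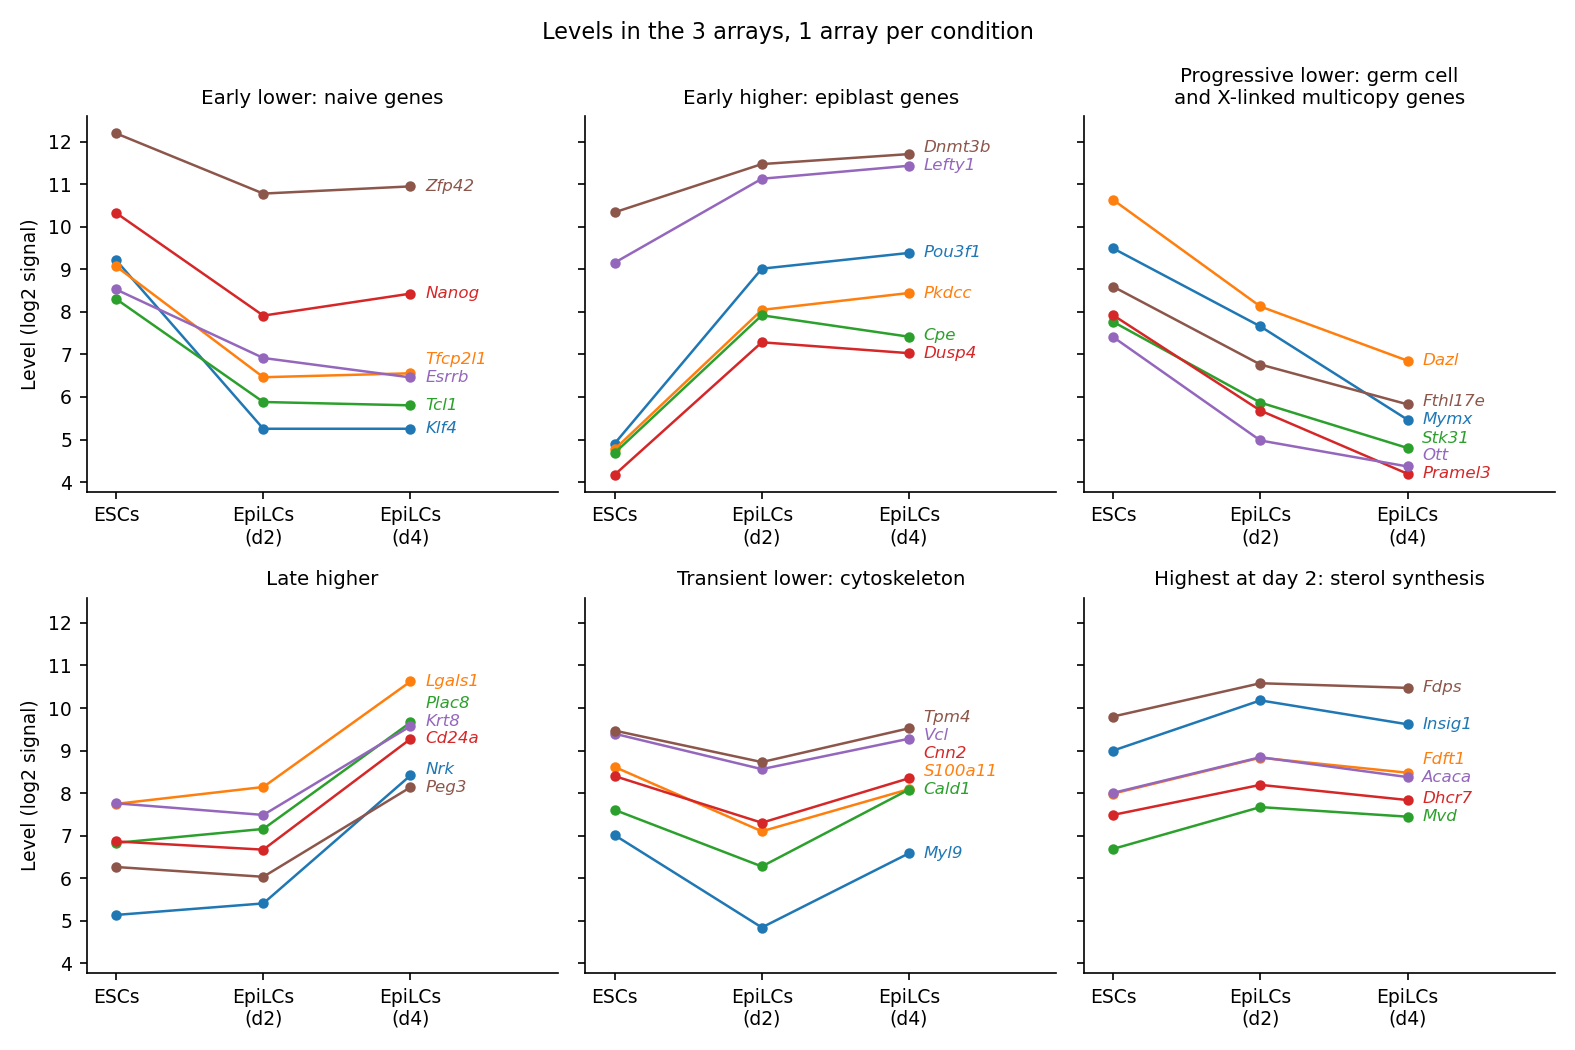
Levels of 36 genes (log2 signal, y axis) in ESCs, EpiLCs (d2) and EpiLCs (d4), 1 array each, in 6 panels by time course. The genes were picked by their course, so a panel does not stand for its whole family. The naive and epiblast genes shown turned by day 2. The germ cell and X-linked genes shown, and *Mymx* in the same panel, which is neither, went on to day 4. The late genes shown moved after day 2, and the cytoskeleton and sterol genes shown turned back.

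Several of the largest differences belonged to genes outside the pluripotency lists. *Mymx*, a micropeptide of myoblast fusion, had the largest difference on the lower side, from 9.49 in ESCs through 7.66 to 5.47, or 16.3-fold. *Crygd*, a crystallin, was early with 7.72, 4.25 and 4.06, as was *Crxos*, a homeobox gene, with 9.73, 6.44 and 6.22, and *Aqp3*, a channel for water and glycerol, with 10.22, 7.34 and 7.38. *Cdyl2*, a chromodomain protein, was progressive with 9.03, 6.71 and 5.53. *Jam2*, a junctional adhesion molecule that was also counted in the naive list, was early with 8.74, 5.42 and 5.70. Of the 20 largest differences on the lower side 9 were early and 11 progressive, and of the 20 on the higher side 4 were early, 14 progressive and 2 late. *Esrp1*, a splicing factor of epithelia, went from 5.08 through 7.94 to 8.60, *Prom1*, a membrane glycoprotein also known as CD133, from 5.12 through 7.76 to 8.43, and *Efnb2*, an ephrin, from 6.11 through 8.70 to 9.22. Another probe set of *Efnb2* gave −0.05.

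Some germline genes were lower, and most of the list was not called. Of 30 measured genes of late germ cells and meiosis 9 were lower and 1 higher, with a median of −0.21. *Dazl*, an RNA-binding protein of germ cells, read 10.63 in ESCs, 8.12 at day 2 and 6.85 at day 4, and a second probe set gave −3.73. *Stk31*, a Tudor-domain kinase, read 7.76, 5.87 and 4.80. *Hormad1*, a protein of meiotic chromosome axes, was late with 8.43, 8.04 and 6.67, and *Sohlh2*, a transcription factor of early gametogenesis, was early with 8.14 at day 2 and 7.59 at day 4, a difference of −1.41 from ESCs. The member that was higher was *Dmrt1*, a gonadal transcription factor, with 7.11, 8.37 and 8.13. *Mael*, a piRNA pathway gene, was transient with 7.41, 8.52 and 7.24.

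The early germ cell genes showed no common direction, with 5 of 18 higher and 3 lower. *Kit*, the receptor tyrosine kinase of germ cells, read 8.78 in ESCs, with differences from ESCs of −1.78 at day 2 and −2.09 at day 4. *Rhox6* (5.31, 5.18 and 6.67) and *Rhox9* (4.94, 4.96 and 6.15), homeobox genes of the X chromosome, and *Tfap2c*, which encodes AP2γ (5.78, 5.33 and 6.59), were higher only at day 4. *Prdm1*, which encodes BLIMP1, read 4.59, 4.75 and 4.83 and was below the array medians throughout.

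An E-box, CACGTG, which reads alike on both strands, stood in 10.2% of all promoters and in 10 of the 24 late germ cell genes with a window, or 41.7%. Windows of a progressive, a late and a transient member are given with the E-box in capitals.
*Stk31* (chr6:49395289-49395588, plus strand): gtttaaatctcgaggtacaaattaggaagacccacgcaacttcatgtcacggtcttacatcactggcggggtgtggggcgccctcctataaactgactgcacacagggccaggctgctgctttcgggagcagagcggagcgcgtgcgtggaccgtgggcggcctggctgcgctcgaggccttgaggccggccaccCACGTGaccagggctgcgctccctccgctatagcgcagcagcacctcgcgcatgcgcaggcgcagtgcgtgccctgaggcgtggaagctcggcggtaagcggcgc
*Hormad1* (chr3:95559427-95559726, plus strand): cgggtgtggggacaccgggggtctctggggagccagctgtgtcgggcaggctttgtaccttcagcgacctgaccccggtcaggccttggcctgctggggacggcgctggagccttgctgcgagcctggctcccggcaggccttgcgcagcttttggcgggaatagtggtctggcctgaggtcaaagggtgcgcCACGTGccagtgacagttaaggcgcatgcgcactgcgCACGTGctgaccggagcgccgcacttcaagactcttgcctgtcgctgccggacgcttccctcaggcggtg
*Mael* (chr1:166238695-166238994, minus strand): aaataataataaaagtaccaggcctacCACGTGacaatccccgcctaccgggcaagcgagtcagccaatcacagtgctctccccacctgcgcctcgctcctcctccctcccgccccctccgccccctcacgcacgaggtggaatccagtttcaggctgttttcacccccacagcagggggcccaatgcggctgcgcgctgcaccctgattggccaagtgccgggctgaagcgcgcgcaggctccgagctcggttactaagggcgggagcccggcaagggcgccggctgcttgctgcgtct
The presence of the E-box did not go with the size of the difference in this list. Of the 10 genes with it 3 were lower, with a median of −0.15, and of the 14 without it 6 were lower, with a median of −0.45, *Dazl* among them.

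Most measured genes of the 2-cell-like state, a rare state of ESC cultures that resembles the embryo at zygotic genome activation, were higher in EpiLCs (d4). Of 8 measured, from a list of 19 symbols, 5 were higher and none lower, with a median of 0.85, against 0.18 at day 2. *Arg2*, an arginase, read 4.20, 4.86 and 6.53, *Usp17la*, a deubiquitinase, 7.92, 7.92 and 9.63, and *Tcstv1* 4.99, 5.54 and 6.61. *Zscan4a*, which is not counted in this list and stands for a family active in this state, read 7.90, 9.06 and 10.79. In a bulk sample, more cells in this state and more RNA per cell cannot be told apart. The *Zscan4* and *Tcstv* genes are near-identical copies, so the assignment of their signals to single copies is uncertain. *Tcstv1* and *Tcstv3* are 2 of the 5 higher members.

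Genes that moved after day 2, when the medium changed, included genes of epithelia and trophoblast. Of 21 measured trophoblast genes 9 were higher and none lower, 8 of the 9 were late, and the median was 0.12, against −0.02 over all genes. *Plac8* read 6.83, 7.16 and 9.66, and the keratin genes *Krt8* (7.76, 7.49 and 9.57) and *Krt19* (4.98, 5.22 and 6.58) were late with it. *Krt18* (6.82, 7.53 and 8.93) was the progressive member, already past the threshold at day 2. Among the higher members are genes that other epithelia express, and the transcription factors that define trophoblast, *Cdx2*, *Elf5* and *Gata3*, were not called and read 4.57 to 5.80 in all 3 arrays. *Nrk*, a kinase gene of the X chromosome, read 5.14, 5.41 and 8.42, *Lgals1*, a galectin, 7.75, 8.14 and 10.62, *Cd24a*, a surface glycoprotein, 6.87, 6.67 and 9.27, and *App*, the amyloid precursor, read 5.02 at day 2 and 7.21 at day 4, a difference of 2.21 from ESCs. On the lower side the late genes included *Bbs2*, a protein of the primary cilium (7.48, 7.80 and 5.53), and *Rec114*, a factor of meiotic recombination (8.54, 8.24 and 6.64).

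Most imprinted genes that were called were late, as were 58.5% of all higher and 44.8% of all lower genes. Of 32 measured 11 were higher and 2 lower, with a median of 0.22 at day 4 and −0.02 at day 2, and 9 of the 13 called were late. The paternally expressed *Peg3* (6.27, 6.04 and 8.14), *Igf2* (5.90, 5.68 and 7.22) and *Ndn* (5.81, 5.40 and 7.04) were late, and so was the maternally expressed *Meg3* (7.58, 7.92 and 8.62). Noncoding transcripts from the same cluster on chromosome 12 as *Meg3* lay beside it: *Rian* read 8.41, 8.69 and 10.28 and *Mirg* 5.77, 6.11 and 6.92, while *Dlk1*, the paternally expressed gene of the cluster, read 5.24, 5.21 and 5.28. Other probe sets gave 0.02 to 1.99 for *Meg3* and as little as 0.03 for *Rian*. *Phlda2*, a growth regulator of the placenta (7.07, 9.66 and 10.41), and its neighbour *Cdkn1c*, a CDK inhibitor (5.12, 7.59 and 8.33), were progressive. *Plagl1*, a zinc-finger gene, was lower from day 2 on, with 9.95, 6.32 and 6.60.

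**Figure D4:**
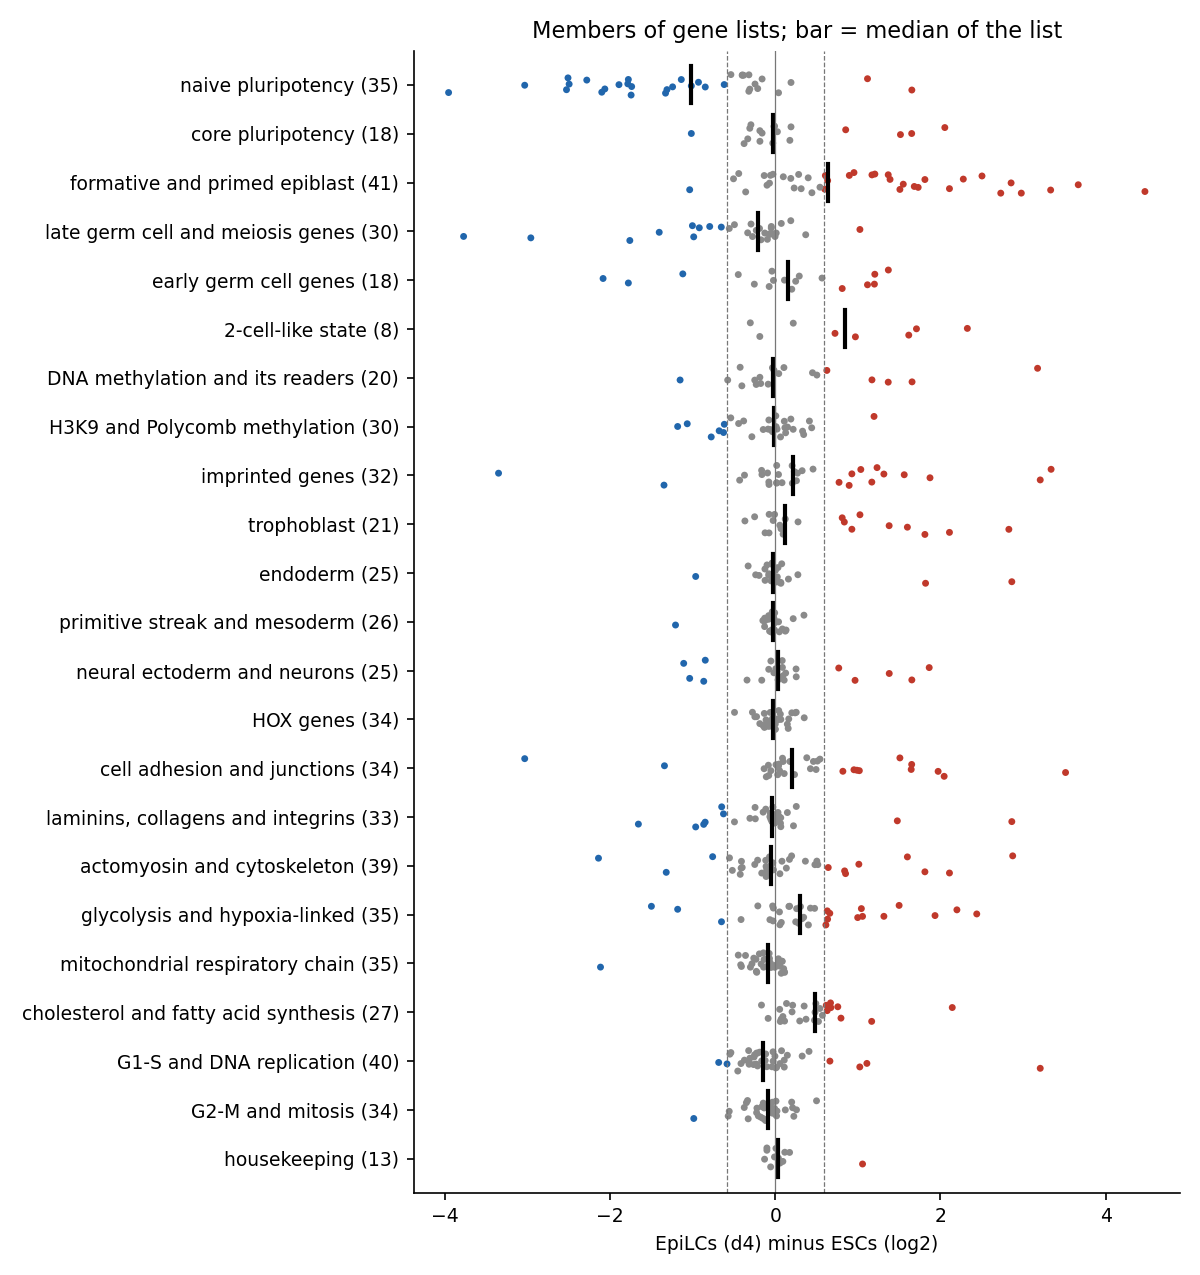
Log2 difference between EpiLCs (d4) and ESCs (x axis) for each measured member of 23 gene lists, with the number of members in brackets, members past 1.5-fold in colour and the list median as a bar; dashed lines mark 1.5-fold. The naive list lies to the left with a median of −1.02, the epiblast list to the right with 0.63, and the HOX list has no member past a line.

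Targets of signaling pathways gave a mixed picture. Of 23 FGF-ERK targets 6 were higher and 1 lower. The phosphatase genes *Dusp4* (4.17, 7.28 and 7.03) and *Dusp6* (8.04, 9.04 and 9.24) and the inhibitor *Spry4* (8.10, 9.04 and 8.96) were early, while *Phlda1* (7.66, 7.10 and 6.33) was lower and late. Of 20 BMP targets and regulators 1 was higher and 3 lower. The inhibitors of bHLH factors *Id2* and *Id3* went opposite ways, *Id2* from 4.12 through 5.22 to 7.16 and *Id3* from 8.27 through 5.45 to 5.88, and *Bmp4* was lower with 6.78, 5.60 and 5.57. Another probe set of *Id2* gave 0.06. Of 16 activin-nodal targets 3 were higher and 1 lower, among them *Skil*, a SMAD corepressor, with 8.04, 10.06 and 10.03. None of 18 WNT targets was called in either direction at day 4.

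Cell adhesion and the cytoskeleton differed in their time course. Of 34 junction genes 10 were higher and 2 lower, with a median of 0.20. The claudin genes *Cldn7* (5.70, 6.54 and 7.74) and *Cldn4* (6.50, 7.25 and 8.47) were progressive, and *Gja1*, a connexin (9.77, 11.04 and 11.28), was early. Of 33 laminins, collagens, integrins and their partners 2 were higher and 6 lower. *Nid1*, a linker of basement membranes, was lowest at day 2 with 8.83, 6.37 and 7.18, while *Lamb1*, a laminin chain, went from 6.65 through 8.32 to 9.52, with another probe set at 0.09. *Vim*, the intermediate filament protein vimentin, went down in both steps, from 10.96 through 9.99 to 8.82, and a range of −2.20 to −1.96 was given by its 3 probe sets.

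A part of the actomyosin genes returned. Of 39 measured genes of actomyosin and cytoskeleton 12 were lower at day 2, with a median of −0.24, and 10 of the 39 fell in the transient class, which holds 0.784% of all genes on the lower side. At day 4, 8 of the 39 were higher than in ESCs and 3 lower, with a median of −0.05, and 7 of the called members were late. *Myl9*, a regulatory myosin light chain, read 7.01 in ESCs, 4.84 at day 2 and 6.59 at day 4. *S100a11*, a calcium-binding protein, read 8.62, 7.10 and 8.09, *Cald1*, which encodes caldesmon, 7.61, 6.28 and 8.09, and *Cnn2*, a calponin, 8.40, 7.31 and 8.35. *Vcl*, which encodes vinculin, *Flna*, filamin, and *Tpm4*, a tropomyosin, took the same course. With the KD-labelled array as day 2, on a common median, 3 of the 10 were past the threshold and the median of the 10 was −0.46, against −0.87 with the scramble array.

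Energy and lipid metabolism differed by branch. Of 35 genes of glycolysis and the hypoxia response 12 were higher and 3 lower, with a median of 0.30. *Slc2a1*, a glucose transporter, read 8.91, 9.57 and 11.11, *Tpi1*, triosephosphate isomerase, 8.98, 10.22 and 10.92, and *Bnip3*, a mitophagy receptor, 6.81, 8.62 and 9.25. *Pfkp*, a phosphofructokinase, went the other way with 8.62, 7.13 and 7.12. Of 35 respiratory chain genes 1 was lower and none higher, with a median of −0.08, and that gene, *Cox7a1*, read 8.04, 6.42 and 5.92. Of 27 genes of cholesterol and fatty acid synthesis 8 were higher and none lower, with a median of 0.47, and at day 2 the count was 14 and the median 0.60. *Lss*, which makes lanosterol, went from 4.10 through 5.79 to 6.25, while *Insig1*, a sterol sensor, read 10.18 at day 2 and 9.62 at day 4, a difference of 0.62 from ESCs, and *Fdft1*, squalene synthase, was transient with 7.99, 8.83 and 8.48. Of the 7 transient members 5 were past the threshold with the KD-labelled array as day 2. *Mt1*, a metallothionein, read 9.90, 12.24 and 12.06, with another probe set at 0.18, and *Nqo1*, a quinone reductase, was transient with 7.35, 8.65 and 7.35.

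Most genes of the cell cycle were not called. Of 40 genes of G1-S and DNA replication 4 were higher and 2 lower, and of 34 genes of G2-M 1, *Pttg1*, was lower, with medians of −0.15 and −0.10. Over all genes 4.11% were higher and 3.47% lower. At day 2, 6 of the 40 G1-S genes were higher, against 2.32% of all genes. Inhibitors made up part of the G1-S genes that were higher at day 4, *Cdkn1c* and *Cdkn2a* (6.31, 7.33 and 7.33). Of 26 p53 targets 6 were higher, among them *Pmaip1*, a BH3-only protein (7.63, 8.81 and 9.27), and 1, *Sesn1*, was lower (8.97, 8.49 and 7.56). Of 30 genes of H3K9 and Polycomb methylation 6 were lower and 1 was higher. The lower ones included the Polycomb subunits *Eed* (10.93, 10.32 and 10.15), *Suz12* (10.36, 9.97 and 9.68) and *Bmi1* (7.65, 6.69 and 6.58) and the H3K9 demethylase *Kdm3a* (10.05, 9.24 and 8.86), and the higher one was the demethylase *Kdm4c* (7.50, 8.56 and 8.69).

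The lists of HOX genes, of primitive streak and mesoderm and of endoderm each had a median of −0.03. Trophoblast genes, given above, and neural genes, given below, had more members called. None of 34 HOX genes was called, 1 of 26 genes of primitive streak and mesoderm was lower, and of 25 endoderm genes 2 were higher and 1 lower. Of the markers fixed for checking the labels, *Mixl1*, *Eomes*, *Gata6*, *Sox17*, *Gata4* and *Foxa2* were not called, and the fibroblast markers *Col1a1*, *Col1a2*, *Col3a1*, *Dcn* and *Thy1* read 3.64 to 6.42 in all 3 arrays. *T*, also fixed as a primitive streak marker, was not found under that symbol and was not read. All 6 naive markers were lower and all 5 EpiLC markers higher in EpiLCs (d4). *Tubb3*, a neuronal tubulin, was lower and was lowest at day 2, with 8.05, 5.94 and 6.94. Of 13 housekeeping genes 12 lay within 1.5-fold, with a median of 0.04, and the exception was *Pgk1*, an X-linked gene of glycolysis (10.30, 10.96 and 11.36).

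The counts of the other families and responses stand beside 4.11% of all genes higher and 3.47% lower. In lists of this size a count of 1 member lies near those shares. Of 22 FGF ligands and receptors 4 were higher and none lower, among them the receptor *Fgfr2* (6.59, 7.03 and 7.97) and *Fgfbp1*, a carrier of FGFs (6.18, 6.37 and 8.17), both late. Of 19 SOX factors 2 were higher, *Sox11* and *Sox4* (7.51, 9.33 and 9.24). Of 38 ephrins, semaphorins and other guidance genes 4 were higher and 1 lower, and of 30 genes of retinoic acid and nuclear receptors 2 were higher and 4 lower, with *Crabp2*, a retinoic acid carrier, going up in both steps (5.08, 6.15 and 6.94). Of 27 genes of the amino acid response 3 were higher and 2 lower. *Asns*, asparagine synthetase, read 11.15, 10.07 and 9.98. Of 20 heat shock and unfolded protein genes 1 was higher and 2 were lower, and of 23 interferon genes only *Ifitm1* was called, higher and late (8.02, 8.04 and 9.22). Neural genes were split with 5 of 25 higher and 4 lower, and mesenchymal genes with 1 of 20 higher and 2 lower. Of 38 genes that the study names for these cultures, a list that is no independent choice, 11 were higher and 11 lower.

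The X chromosome held the highest share of called genes in both directions. Of 597 X-linked genes 64 were higher (10.7%) and 36 lower (6.03%) in EpiLCs (d4), against 1.98% to 6.78% and 1.93% to 4.72% on the 19 autosomes. Among genes at or above the array median in either array the X-linked shares were 16.2% and 8.90%, against 5.49% and 4.83% elsewhere. Multicopy families of germ cells and placenta were uneven. All 4 measured *Magea* genes and 4 of 5 *Xlr* genes were lower, the 4 *Rhox* genes were split into 2 higher and 2 lower, and of 13 *Pramel* genes on all chromosomes 3 were lower and none higher, with a median of −0.08. *Pramel3* read 7.92, 5.68 and 4.19, *Ott*, an ovary and testis transcript, 7.41, 4.98 and 4.37, *Fthl17e*, a ferritin-like gene, 8.59, 6.76 and 5.83, and *Rhox13* 9.66, 8.55 and 7.78. Copies within such families can be near identical, so signals of single copies are uncertain.

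Of the 64 X-linked genes on the higher side 39 were late, 14 early and 11 progressive. *Sh3bgrl*, a small thioredoxin-like protein, read 4.39, 6.52 and 8.44, *Hmgn5*, a nucleosome-binding protein, 5.96, 7.26 and 9.44, and *Smarca1*, a chromatin remodeler, 4.64, 4.95 and 6.75. *Rlim*, an E3 ligase, was early with 8.81, 10.09 and 10.58. Of 6 *Armcx* genes, a family of armadillo-repeat proteins, 4 were higher and none lower, with a median of 1.42. *Xist*, the RNA that coats the inactive X chromosome, read 7.37, 7.18 and 6.94, a difference of −0.43. The array of ESCs lacks the shRNA label of the EpiLC arrays, so differentiation and differences between the cell stocks cannot be told apart on this chromosome either.

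**Figure D5:**
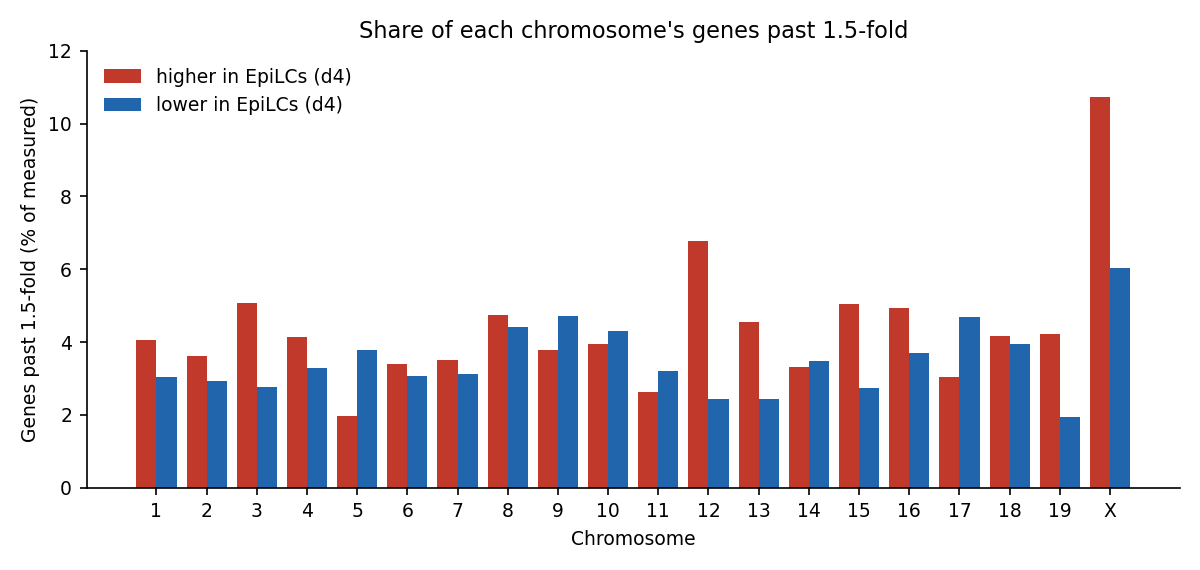
Percent of each chromosome's measured genes that were higher or lower by 1.5-fold in EpiLCs (d4) than in ESCs (y axis), for the 19 autosomes and the X chromosome (x axis). The X chromosome stands above the autosomes in both directions, at 10.7% and 6.03%.

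Other probe sets of the called genes gave a partial second reading from the same arrays. Of 692 other probe sets of genes on the higher side 25.9% were also past 1.5-fold upward, 77.9% had the same sign and 0 were past it downward. Of 447 on the lower side the shares were 31.3% and 86.6%, and 2 were past it upward. *Emb*, an immunoglobulin-family glycoprotein, was the only gene with probe sets past the threshold in both directions, at −0.65 and 2.55. Dim signals near the array background understate differences, and genes named from 1 probe set have no second reading. Of 16139 probe sets without a single symbol 303 were higher and 232 lower, and they are not described here.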

How the data were processed

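Total RNA of E14tg2a cultures was labelled with a 3' IVT kit and run on Affymetrix array strips for mouse, a single array for every condition. The values deposited by the authors are log2 signals made by robust multi-array average. The submitters' processing notes name the Affymetrix Expression Console without a version. Columns were assigned by the sample titles, and no column was left without a sample.

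Of 45141 probe sets, 104 controls were left out. The annotation gives 1 symbol for 28898 of the rest, several for 551 and none for 15588. Each gene is represented by its brightest probe set, judged by the mean of the 6 arrays. Differences were taken from the deposited log2 values with Python 3.11.15, numpy 2.4.6 and pandas 2.3.3, and a call is 1.5-fold. With no replicates no test was made; precision is limited by the number of arrays. The code for the time classes was run on simulated arrays with planted steps larger than most differences here and with little noise. That run shows that the code assigns the classes and does not measure how reliable they are in these arrays. Coordinates and promoter windows are those of RefSeq on GRCm38.p6.

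The text names the 20 largest differences in each direction, the 10 largest of each time class, the 6 largest of each list and the genes the study names, or some of these. Members named to fill out a list, the genes of the chromosome 12 cluster and the X-linked genes, the analysis by chromosome and the choice of windows shown came after their values were seen. The members and the 39 lists, with 891 of 1013 symbols measured, were chosen with earlier results of these data known, and some genes stand in several lists. The alternatives were a 2-fold threshold, a filter on dim probe sets, quantile normalization, a common median, other rules from probe sets to genes and the KD-labelled array as day 2. Genes without a symbol in the annotation used were not analysed here.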

Additional observations from a re-analysis of the deposited data

How the results depend on the processing

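No paired analysis was possible because each condition has 1 array. A 2-fold threshold left 444 probe sets above ESCs and 307 below them at day 4, or 306 and 230 genes. With 2-fold at every step the early class held 102 higher and 131 lower genes, the progressive class 15 and 9, the late class 189 and 89, and the transient class 29 and 38. Late genes outnumbered early genes on the higher side at both thresholds. Early genes outnumbered late genes on the lower side at both, by 279 to 266 at 1.5-fold. With quantile normalization the order on the lower side turned, with 276 early and 278 late genes. With the KD-labelled array as day 2, after a shift to a common median, 185 genes were early and lower, and the transient class held 524 higher and 404 lower genes. Of the 134 transient lower genes 45 kept their class with that array, and of the 411 late higher genes 306 did. The cause was not tested, and knockdown and normalization run cannot be told apart. On that array late lower genes (333) outnumbered early ones (185).

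Quantile normalization, a common median and the filter on dim probe sets, and for genes the other rules from probe sets to genes, left the counts at day 4 within 1.5 times, with 513 to 882 genes higher and 479 to 684 lower over the rules. List medians moved by up to 0.03 with quantile normalization, 0.13 with the median of probe sets and 0.77 without dim genes, where the 2-cell-like list stood at 1.62. Taking the median of a gene's probe sets put 20 of 299 named genes back inside the threshold. *Hells*, a chromatin remodeler, changed sign, from −0.23 at its brightest probe set to 0.65 at the one with the largest difference. The rule that takes the brightest probe set over the 3 arrays used here was added after the data were seen. No depth is known for these arrays, and signals near background limit what can be seen.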
